A study of Mus musculus with 15 samples.

Results

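The genes described are the homeobox genes of the 4 mouse Hox clusters. They were chosen by symbol alone: every probe set whose single annotated gene was Hoxa, Hoxb, Hoxc or Hoxd followed by a number. Of 21212 probe sets, 38 met this, each for a different gene: 10 of the Hoxa cluster (chromosome 6), 10 of Hoxb (chromosome 11), 9 of Hoxc (chromosome 15) and 9 of Hoxd (chromosome 2). They are 38 of the 39 Hox genes in the RefSeq gene table for GRCm38.p6.

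RNA came from feeder-independent E14TG2a.4 mouse embryonic stem cells at passage 17, kept on gelatin with LIF and 15% serum, and infected with lentivirus carrying a short hairpin RNA (shRNA). Puromycin at 2 µg per ml was applied for 72 hours, starting 36 hours after infection. The first set held 9 arrays, 3 each with a scrambled shRNA, Tet1 shRNA 4 and Tet1 shRNA 5; the second held 6 arrays, 3 each with a scrambled shRNA and a Sin3A shRNA. All groups therefore carried a lentiviral shRNA and had passed through drug selection, and in bulk RNA a change in the share of cells expressing a gene and a change in RNA per cell cannot be told apart. The labels do not say that the 3 arrays of a group were separate cultures, so p-values reflect array-to-array spread only, and that spread may be technical.

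Hox genes encode transcription factors that give cells their position along the head-to-tail axis. Within a cluster they lie in order of their number: low numbers are expressed early and in anterior parts of the embryo, high numbers late and in posterior parts such as the tail bud, the genital region and the ends of the limbs. Genes of the same number in different clusters are paralogues, copies of one ancestral gene. In embryonic stem cells the clusters are known to be held silent by Polycomb complexes over CpG-rich DNA. TET1, which converts 5-methylcytosine to 5-hydroxymethylcytosine, is known to bind CpG-rich promoters, and SIN3A is a scaffold for histone deacetylase complexes.

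Values were log2 expression, and each set was compared only with its own scrambled arrays, because the mean over probe sets was 7.08 to 7.11 for arrays of the Tet1 set and 8.09 for those of the Sin3A set. Tet1 mRNA fell by 1.78 ± 0.07 (SE) on the log2 scale with shRNA 4 and by 2.10 ± 0.07 with shRNA 5 (limma adjusted p = 2.1e-06 and 1.5e-06), and Sin3a fell by 1.55 ± 0.05 with its shRNA (adjusted p = 1.3e-05). Each target also moved in the other set. Sin3a changed by −0.27 ± 0.06 and −0.24 ± 0.06 with Tet1 shRNA 4 and 5 (limma adjusted p = 0.015 and 0.022). Tet1 rose by 0.31 ± 0.06 with the Sin3A shRNA (limma adjusted p = 0.0068). All 8 embryonic stem cell markers lay above the array median in the scrambled arrays of both sets. Scrambled replicate 2 of the Tet1 set stood apart for the Hox genes: it was the highest of its 3 arrays for 32 of 38 Hox genes, against 46.3% of all probe sets. Its spread over probe sets was the lowest of the 9 arrays (SD 2.19, the others 2.21 to 2.27). The median Hox level, relative to the array median, was −1.07 there and −1.40 and −1.32 in scrambled replicates 1 and 3. In the Tet1 set 24 of 38 Hox probe sets (63.2%) held an identical value in at least 2 arrays, against 49.1% of all probe sets; Hoxa5 held the same value in 8 of the 9. No such ties occurred in the Sin3A set.

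Before any knockdown the Hox genes were weakly expressed. In the scrambled arrays their median level was 1.26 log2 units below the array median (−1.26 in both sets). Those above the array median were 2 of 38 in the Tet1 set and 3 in the Sin3A set, and none was in the upper quartile of probe sets in either set, while 15 of 38 were in the lower quartile in both. Levels of different probe sets also carry the brightness of their probes, so this places the family as a whole and ranks no gene against another.

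The genes above the array median were not the same in both sets. In the Tet1 set they were Hoxa4, a gene of the hindbrain and neck region, at 0.29 ± 0.10 (SD, n = 3), and Hoxd11, a limb and kidney patterning gene, at 0.14 ± 0.23. In the Sin3A set they were Hoxc12 at 0.13 ± 0.02, Hoxb9 at 0.06 ± 0.05 and Hoxb3 at 0.02 ± 0.09. Each of these 5 genes lay within 1 unit of the median in both sets: Hoxa4 was at −0.05 ± 0.13 and Hoxd11 at −0.55 ± 0.03 in the Sin3A set, and Hoxc12 was at −0.01 ± 0.04, Hoxb9 at −0.36 ± 0.11 and Hoxb3 at −0.22 ± 0.10 in the Tet1 set. The lowest were Hoxa3 in the Tet1 set (−2.89 ± 0.03) and Hoxa5 in the Sin3A set (−2.81 ± 0.04). Hoxa3 held an identical log2 value in the 3 scrambled arrays of the Tet1 set, so its SD there is only that of the array medians.

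By cluster, the median level was −1.57 for Hoxa, −0.81 for Hoxb, −1.54 for Hoxc and −1.03 for Hoxd in the Tet1 set, and −1.47, −0.79, −1.60 and −1.24 in the Sin3A set. By position, genes 1 to 4 (anterior, 11 genes) had a median of −1.03, genes 5 to 8 (central, 11 genes) −1.71 and genes 9 to 13 (posterior, 16 genes) −1.0 in the Tet1 set. Central genes were also lowest in the Sin3A set (−1.70, against −1.30 for anterior and −1.07 for posterior genes). The scrambled levels of the 38 genes were alike in the 2 sets (Pearson r = 0.937, Spearman rho = 0.943 across genes, which are not independent). Probe brightness is common to both sets, so it adds to this likeness and to that of the cluster and position medians. The median absolute difference was 0.178, and the widest gap was 0.689, for Hoxd11.

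**Figure D1:**
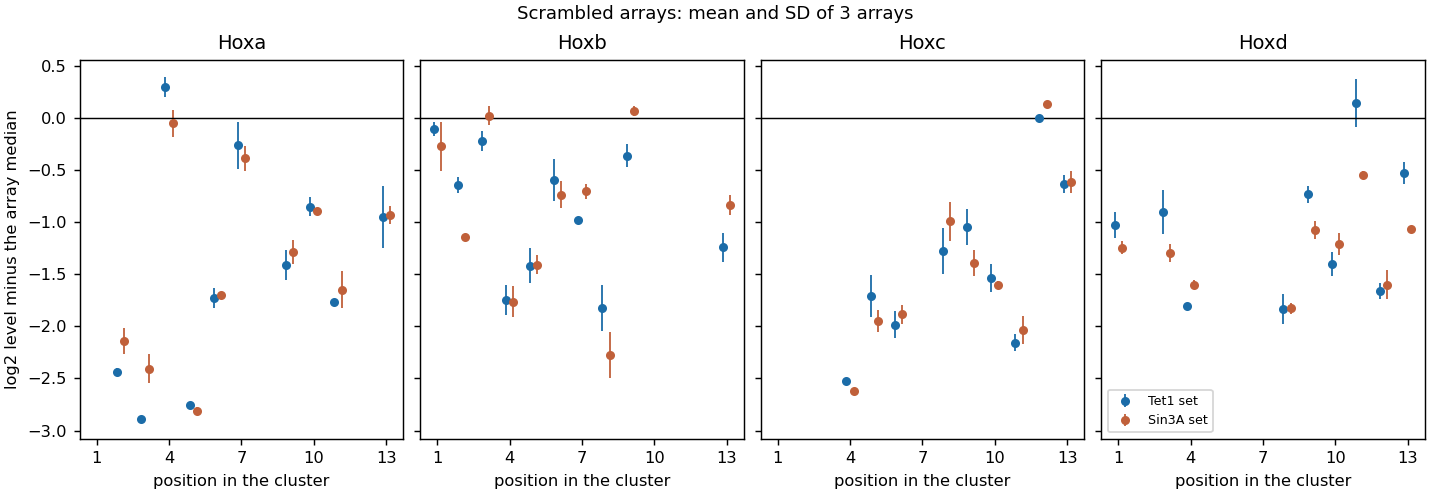
Level of each Hox gene in the scrambled arrays, as log2 value minus the array median, by cluster and by position in the cluster; points are means of 3 arrays and bars are the SD, blue for the Tet1 set and orange for the Sin3A set. Nearly all points lie below 0, and the 2 sets place the genes alike, with Hoxd11 the widest apart.

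The largest changes, described next, were at positions 10 to 13. For 5 of the genes concerned, the 250 bases upstream of the annotated start are shown from RefSeq promoters (GRCm38.p6). They let the CpG content of genes lying side by side be compared. Hoxc12 had no listed promoter, and the 2 listed for Hoxa10 (20 and 7 CpG) are not shown. CpG dinucleotides are in capitals and each sequence reads 5′ to 3′ in the direction of the gene. Hoxa13 is at chr6:52260881-52261130 on the minus strand. On the plus strand of chromosome 2 lie Hoxd13 at chr2:74667975-74668224, Hoxd12 at chr2:74674763-74675012, the second of 2 listed Hoxd11 promoters at chr2:74682073-74682322 and Hoxd10 at chr2:74691641-74691890.
Hoxa13: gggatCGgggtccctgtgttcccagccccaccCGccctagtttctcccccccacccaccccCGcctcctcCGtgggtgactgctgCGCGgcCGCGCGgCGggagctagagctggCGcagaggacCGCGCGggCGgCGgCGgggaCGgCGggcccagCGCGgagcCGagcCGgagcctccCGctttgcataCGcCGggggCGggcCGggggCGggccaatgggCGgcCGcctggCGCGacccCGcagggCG
Hoxd13: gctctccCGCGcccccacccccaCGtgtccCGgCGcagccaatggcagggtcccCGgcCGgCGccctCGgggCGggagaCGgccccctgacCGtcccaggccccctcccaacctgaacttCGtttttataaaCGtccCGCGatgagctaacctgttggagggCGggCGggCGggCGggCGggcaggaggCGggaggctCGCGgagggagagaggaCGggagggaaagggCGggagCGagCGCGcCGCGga
Hoxd12: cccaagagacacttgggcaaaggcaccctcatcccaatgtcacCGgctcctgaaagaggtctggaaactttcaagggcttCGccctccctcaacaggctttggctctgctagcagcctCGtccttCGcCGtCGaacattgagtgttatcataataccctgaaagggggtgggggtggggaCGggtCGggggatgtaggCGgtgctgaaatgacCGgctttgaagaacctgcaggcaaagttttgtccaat
Hoxd11: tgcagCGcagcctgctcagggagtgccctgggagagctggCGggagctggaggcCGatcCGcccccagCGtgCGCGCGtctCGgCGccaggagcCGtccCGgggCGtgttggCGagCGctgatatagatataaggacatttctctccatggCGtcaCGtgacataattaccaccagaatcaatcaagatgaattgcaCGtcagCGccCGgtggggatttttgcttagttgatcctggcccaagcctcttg
Hoxd10: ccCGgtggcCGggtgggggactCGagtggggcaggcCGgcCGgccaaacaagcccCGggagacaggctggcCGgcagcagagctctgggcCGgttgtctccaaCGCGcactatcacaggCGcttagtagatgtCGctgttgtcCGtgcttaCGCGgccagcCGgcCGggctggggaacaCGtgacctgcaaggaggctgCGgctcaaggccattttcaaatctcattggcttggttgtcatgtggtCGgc

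The Hoxa13 window held 35 CpG, Hoxd13 31, Hoxd10 20, the Hoxd11 window shown 20 and Hoxd12 10, while the other Hoxd11 window, further upstream, held 2. Windows were listed for 22 of the 38 genes, 24 windows in all, with a median of 12.5 CpG (range 2 to 35); the median over all 32841 windows was 6. Of the 24, 19 (the background share was 46.3%) held more than 6. Anterior and central genes such as Hoxa5 (28 CpG) and Hoxd1 (24 CpG) had CpG-rich windows as well. The letters TATAAA, searched on both strands, were in 4 of the 24 windows, Hoxd13 among them, and in 12.4% of all windows. These counts describe the sequence only.

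Tet1 knockdown left most Hox genes within the spread of the arrays and was accompanied by higher levels of a few posterior ones. Hoxc12, a posterior gene of the Hoxc cluster known for expression in the tail and the hair follicle, was 1.74-fold higher with shRNA 4 and 1.53-fold higher with shRNA 5. Hoxa13 and Hoxd13, the last genes of their clusters and known for patterning the digits and the genital region, and Hoxd12, their neighbour in the Hoxd cluster, rose with shRNA 5. No Hox gene fell with either.

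By limma with Benjamini-Hochberg adjustment over all 21212 probe sets (threshold 0.05), 1 of 38 Hox genes was higher with shRNA 4, where 6.88% of all probe sets were, and 0 were lower, where 4.71% of all were. With shRNA 5, 4 of 38 were higher (8.37% of all probe sets) and 0 were lower (5.46%). Hoxc12 alone was higher with both hairpins (5.40% of all probe sets) and none was lower with both (3.40%). The Hox share was thus below that of all probe sets with shRNA 4 (2.63%) and near it with shRNA 5 (10.5%). Dim probe sets were called less often than bright ones: among all 10600 below the array median in the scrambled arrays, 3.39% were higher with shRNA 4 and 3.16% with shRNA 5. Unadjusted p was under 0.05 for 4 of 38 Hox genes (10.5%) with shRNA 4, against 23.3% of all probe sets, and for 6 (15.8%) with shRNA 5, against 25.7%. The median Hox change was −0.01 with shRNA 4 and 0.02 with shRNA 5, and that of all probe sets was −0.00 with both. Both comparisons use the same 3 scrambled arrays.

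Hoxc12 had log2 values of 6.88, 6.99 and 6.96 in the scrambled arrays of the Tet1 set. It had 7.76, 7.80 and 7.65 with Tet1 shRNA 4 and 7.50, 7.52 and 7.65 with shRNA 5. All 6 knockdown arrays lay above all 3 scrambled arrays, with a gap wider than the spread of any group. The log2 change was 0.80 ± 0.07 (SE) with shRNA 4 (adjusted p = 8.4e-05) and 0.61 ± 0.07 with shRNA 5 (adjusted p = 0.00034). Relative to the array median it moved from −0.01 to 0.77 and 0.60. Its neighbours Hoxc11 and Hoxc13 changed by 0.02 ± 0.12 and 0.10 ± 0.09 with shRNA 4 and by −0.07 ± 0.12 and 0.08 ± 0.09 with shRNA 5, all with adjusted p of 0.58 or above.

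Hoxa13 had log2 values of 6.03, 6.30 and 5.66 in the scrambled arrays, 6.33, 6.30 and 6.36 with shRNA 4, and 6.61, 6.61 and 6.41 with shRNA 5. The scrambled arrays spread widely, and replicate 2 reached the lowest shRNA 4 array to within 2 decimals, while all shRNA 5 arrays were above it. The change was 0.55 ± 0.14 with shRNA 5 (1.46-fold, adjusted p = 0.025) and 0.34 ± 0.14 with shRNA 4 (adjusted p = 0.17). Leaving out scrambled replicate 1 or shRNA 5 replicate 1 or 2 took the adjusted p for shRNA 5 to 0.058, 0.0887 and 0.0906, and a fit of only these 2 groups took it to 0.0698. Without scrambled replicate 2, the highest control, the change with shRNA 4 was 0.49 and passed (adjusted p = 0.0246). This was the only 1 of 6 fits without 1 array that passed for shRNA 4.

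Hoxd13 had log2 values of 6.30, 6.55 and 6.41 in the scrambled arrays, 6.64, 6.91 and 6.64 with shRNA 4, and 6.74, 6.70 and 7.04 with shRNA 5. Every knockdown array was above every scrambled array. The change was 0.41 ± 0.11 with shRNA 5 (1.33-fold, adjusted p = 0.039) and 0.31 ± 0.11 with shRNA 4 (1.24-fold, adjusted p = 0.12), so shRNA 4 did not pass although its arrays did not overlap the controls. For shRNA 5 the adjusted p was 0.123 without scrambled replicate 1, 0.107 without scrambled replicate 3, 0.0682 and 0.129 without shRNA 5 replicates 1 and 3, and 0.0577 in a fit of only these 2 groups. For shRNA 4 it was 0.0411 when all 15 arrays shared 1 estimate of the spread.

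Hoxd12 had log2 values of 5.36, 5.28 and 5.22 in the scrambled arrays, 5.40, 5.40 and 5.17 with shRNA 4, and 5.56, 5.55 and 5.67 with shRNA 5. Of the shRNA 4 arrays, replicates 1 and 2 lay just above all scrambled arrays and replicate 3 below all of them, while the shRNA 5 arrays were above all arrays of both other groups. The change was 0.31 ± 0.08 with shRNA 5 (1.24-fold, adjusted p = 0.029) and 0.04 ± 0.08 with shRNA 4 (adjusted p = 0.81). The call for shRNA 5 held in 1 of 6 fits that left out an array, the one without scrambled replicate 1. The adjusted p was 0.0561 and 0.104 without scrambled replicates 2 and 3, and 0.0667, 0.0641 and 0.106 without shRNA 5 replicates 1, 2 and 3.

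Hoxd10 and Hoxd11, the next genes of the Hoxd cluster, did not pass with either hairpin. Hoxd10 had log2 values of 5.50, 5.70 and 5.44 in the scrambled arrays, 5.71, 6.23 and 5.83 with shRNA 4, and 6.03, 5.68 and 6.07 with shRNA 5. The shRNA 4 arrays were all above the scrambled arrays, the nearest by the second decimal only, and shRNA 5 replicate 2 lay within them; the change was 0.38 ± 0.15 with each (adjusted p = 0.15 and 0.13). Hoxd11 had 6.92, 7.38 and 6.97 in the scrambled arrays, 7.22, 7.40 and 7.31 with shRNA 4, and 7.34, 7.29 and 7.27 with shRNA 5. Scrambled replicate 2 was as high as the knockdown arrays and the other two were below all of them. The change of Hoxd11 was 0.22 ± 0.11 and 0.21 ± 0.11 (adjusted p = 0.29 with each hairpin). Leaving out that array, the highest control, raised it to 0.37 and 0.36 (adjusted p = 0.00894 and 0.0091). With each hairpin this was the only 1 of 6 fits without 1 array that passed. Across these fits the change was as low as 0.14 and 0.13, and the adjusted p reached 0.565 and 0.563. The RefSeq models of Hoxd10 and Hoxd11 overlap, so which of them a probe reads is uncertain. The same limit holds for Hoxd3 with Hoxd4, Hoxb3 with Hoxb4, and Hoxa3 with Hoxa4, Hoxa5 and Hoxa6. Hoxa10, named after its values were seen, also turned on single arrays. Its change with shRNA 5 was 0.28 ± 0.09 (adjusted p = 0.073). It was 0.34 without scrambled replicate 2 (adjusted p = 0.0429) and 0.36 without shRNA 5 replicate 2 (adjusted p = 0.0406). These were the only 2 of 6 such fits in which it passed, and the adjusted p reached 0.228 in the rest.

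**Figure D2:**
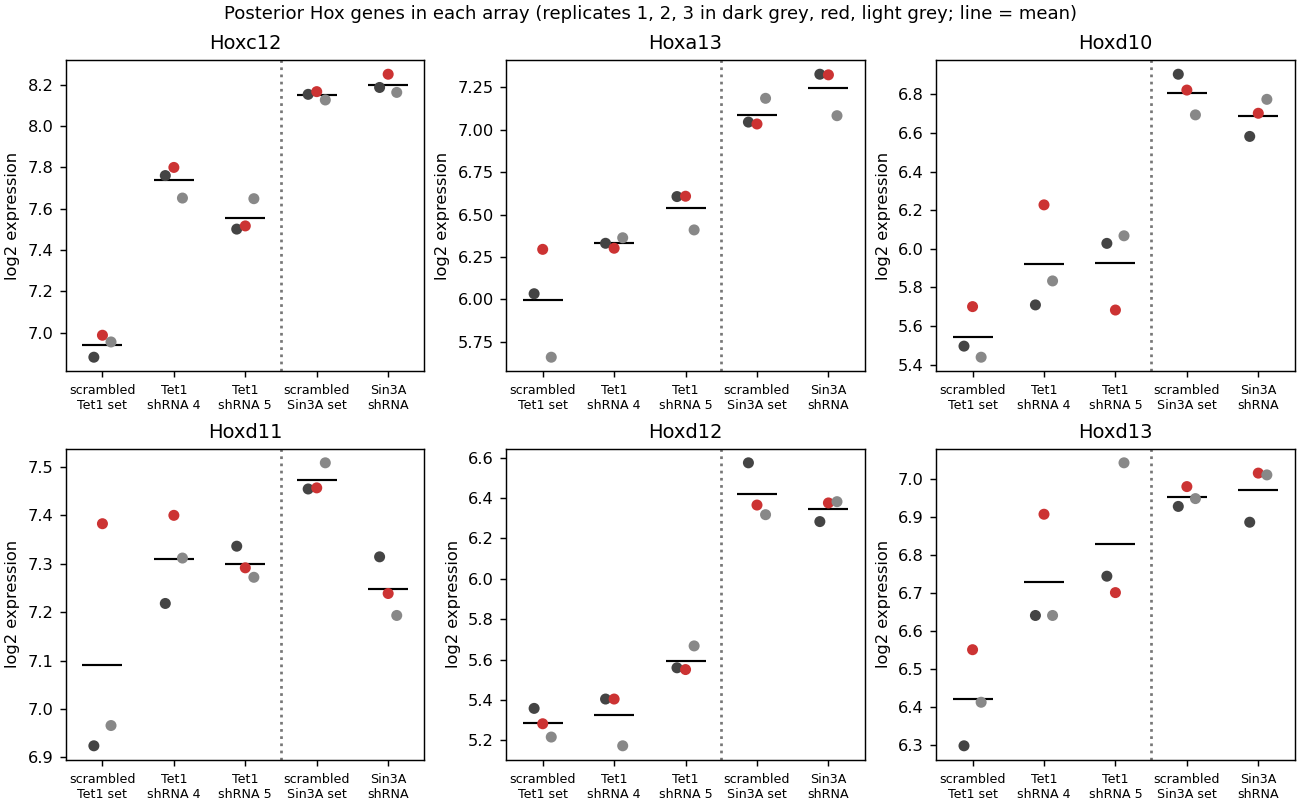
log2 expression of 6 posterior Hox genes in each of the 15 arrays, by group; points are arrays, coloured by replicate number, horizontal lines are group means, and the dotted line separates the 2 sets, whose levels are on different scales. Hoxc12 separates both Tet1 shRNA groups from the scrambled arrays, and scrambled replicate 2 (red) is the highest Tet1-set control for 5 of the 6 genes.

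Counted by arrays instead of by the fit, 4 Hox genes had all 3 shRNA 4 arrays above all scrambled arrays (Hoxa13, Hoxc12, Hoxd10 and Hoxd13), where 14.1% of all probe sets did, and 0 had them all below (10.9%). With shRNA 5 there were 4 above (Hoxa13, Hoxc12, Hoxd12 and Hoxd13; 17% of all probe sets) and 0 below (11.9%).

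Ordered by position, every Hox gene that passed with a Tet1 hairpin was posterior: 1 of 16 with shRNA 4 and 4 of 16 with shRNA 5. No anterior (0 of 11) or central gene (0 of 11) passed with either. Of all probe sets 6.88% were higher with shRNA 4 and 8.37% with shRNA 5, so counts of 0 or 1 here are near background. The median change was 0.08 and 0.10 for posterior genes, −0.05 and 0.02 for anterior genes, and −0.04 and −0.03 for central genes, with shRNA 4 and 5 respectively. Changes were above 0 with both hairpins for 11 of the 16 posterior genes, 2 of the 11 central and 1 of the 11 anterior genes. Both hairpins share the 3 scrambled arrays, which makes their signs alike more often. Of all probe sets 49.1% were above 0 with shRNA 4 and 48.6% with shRNA 5. In every cluster but Hoxb the highest change with each hairpin was at position 10, 12 or 13; in Hoxb it was Hoxb7 with shRNA 4 (0.05 ± 0.06) and Hoxb13 with shRNA 5 (0.12 ± 0.10), and neither passed. These are descriptions: the difference between positions was not tested.

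Among arrays, the median deviation of the posterior genes from their scrambled means was 0.11, 0.14 and 0.03 with shRNA 4 and 0.21, 0.00 and 0.15 with shRNA 5, and −0.05, 0.14 and −0.10 in the scrambled arrays themselves. Scrambled replicate 2 thus lay level with the highest shRNA 4 array for this group as a whole. That array was also high for central genes (0.22), where the Tet1 shRNA arrays were all at 0.00 or below, and for anterior genes (0.09), where shRNA 5 replicate 1 alone was as high.

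**Figure D3:**
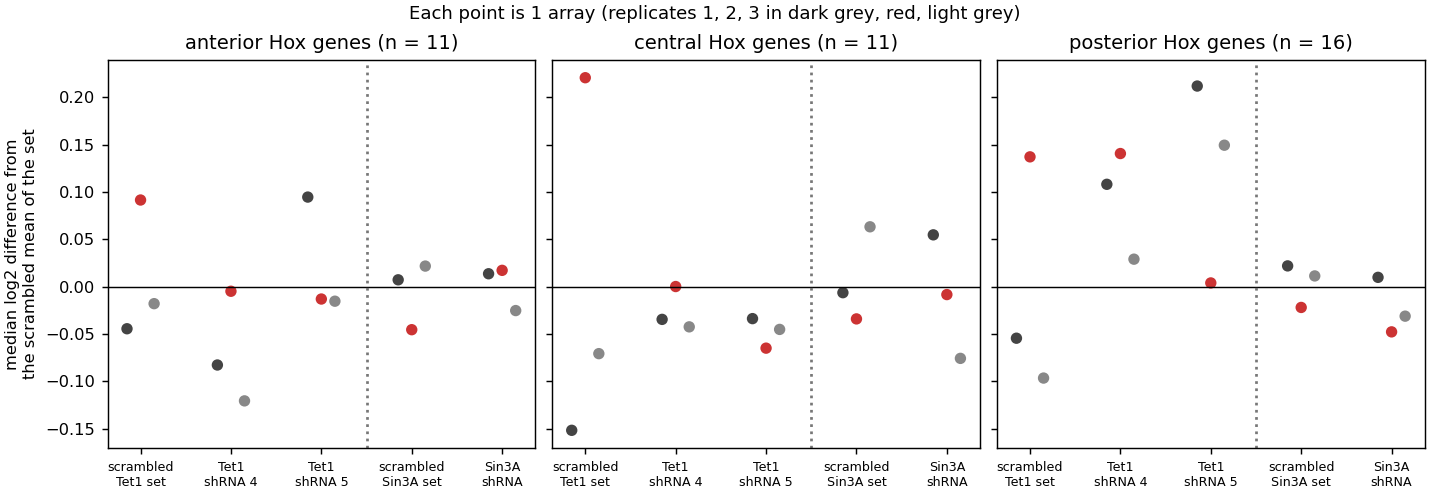
Median difference of anterior, central and posterior Hox genes from the scrambled mean of their set, 1 point per array, coloured by replicate number; the dotted line separates the sets. Posterior medians are at or above 0 in all 6 Tet1 shRNA arrays, and scrambled replicate 2 (red), at 0.14, is level with the highest shRNA 4 array and below shRNA 5 replicates 1 and 3.

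Within the Hoxd cluster the median change over Hoxd10 to Hoxd13 was 0.26 with shRNA 4 and 0.34 with shRNA 5. Over Hoxd1 to Hoxd9 it was −0.04 and 0.02. This split departs from the position groups above and follows where the changes lay, so it is a description only. With shRNA 4, Hoxd12 (0.04 ± 0.08) was nearer 0 than Hoxd8 (0.11 ± 0.11) and Hoxd9 (0.09 ± 0.09). Evx2, a homeobox gene next to Hoxd13, changed by −0.11 ± 0.13 and 0.02 ± 0.13 (adjusted p = 0.68 and 0.94). Lnpk, beyond Evx2, changed by 0.15 ± 0.20 and 0.20 ± 0.20 (adjusted p = 0.72 and 0.6). On the other side, Mtx2, a mitochondrial import gene beyond Hoxd1, rose by 0.72 ± 0.09 and 0.81 ± 0.09 (adjusted p = 0.00056 and 0.00029), while Hoxd1 itself changed by −0.09 ± 0.08 and 0.04 ± 0.08 (adjusted p = 0.6 and 0.82). The antisense transcript Hoxd3os1 changed by 0.04 ± 0.08 and 0.09 ± 0.08 (adjusted p = 0.8 and 0.52). Hoxd3 itself had the lowest values of the cluster, −0.15 ± 0.12 and −0.07 ± 0.12 (adjusted p = 0.53 and 0.79).

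**Figure D4:**
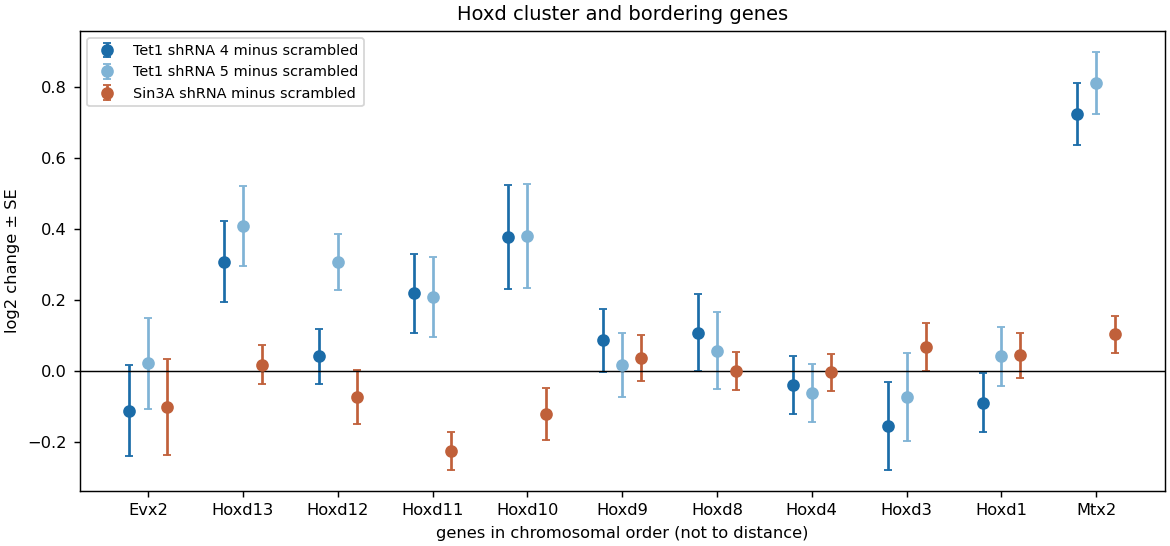
log2 change with its SE for the genes of the Hoxd cluster and the bordering Evx2 and Mtx2, in chromosomal order, for Tet1 shRNA 4 (dark blue), Tet1 shRNA 5 (light blue) and Sin3A shRNA (orange). From Hoxd10 to Hoxd13 the Tet1 values run from 0.04 (Hoxd12 with shRNA 4) to 0.41. From Hoxd9 to Hoxd1 they run from −0.15 to 0.11. Mtx2 rose with both Tet1 hairpins.

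Paralogues did not move as one. Among the 4 genes of group 13 the change was above 0 with both hairpins for all, yet it was 0.01 and 0.12 for Hoxb13 (a prostate and tail gene) and 0.10 and 0.08 for Hoxc13 (a hair and nail gene), with adjusted p of 0.5 or above. In group 12, Hoxc12 passed with both and Hoxd12 with shRNA 5. In group 10, Hoxd10 (0.38 and 0.38) and Hoxa10 (0.18 and 0.28) stood beside Hoxc10 (−0.02 and −0.17), the lowest Hoxc value with shRNA 5. In group 9, 1 of 4 genes was above 0 with each hairpin.

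The other clusters held the low extremes. With shRNA 4 these were Hoxa3 (−0.05 ± 0.07), Hoxb1 (−0.16 ± 0.10) and Hoxc8 (−0.23 ± 0.18), and with shRNA 5 Hoxa9 (−0.06 ± 0.08), Hoxb6 (−0.09 ± 0.10) and Hoxc10 (−0.17 ± 0.10); none passed, with adjusted p from 0.34 to 0.76. Hoxc8 had values of 5.49, 5.95 and 5.58 in the scrambled arrays and 5.28, 5.88 and 5.15 with shRNA 4. Its replicate 2 was high in both groups, and without those 2 arrays the difference was −0.32 with an adjusted p of 0.025. The signs of Hoxa9, Hoxb6 and Hoxd3 with shRNA 5 turned when scrambled replicate 2 was left out (0.03, 0.02 and 0.06).

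**Figure D5:**
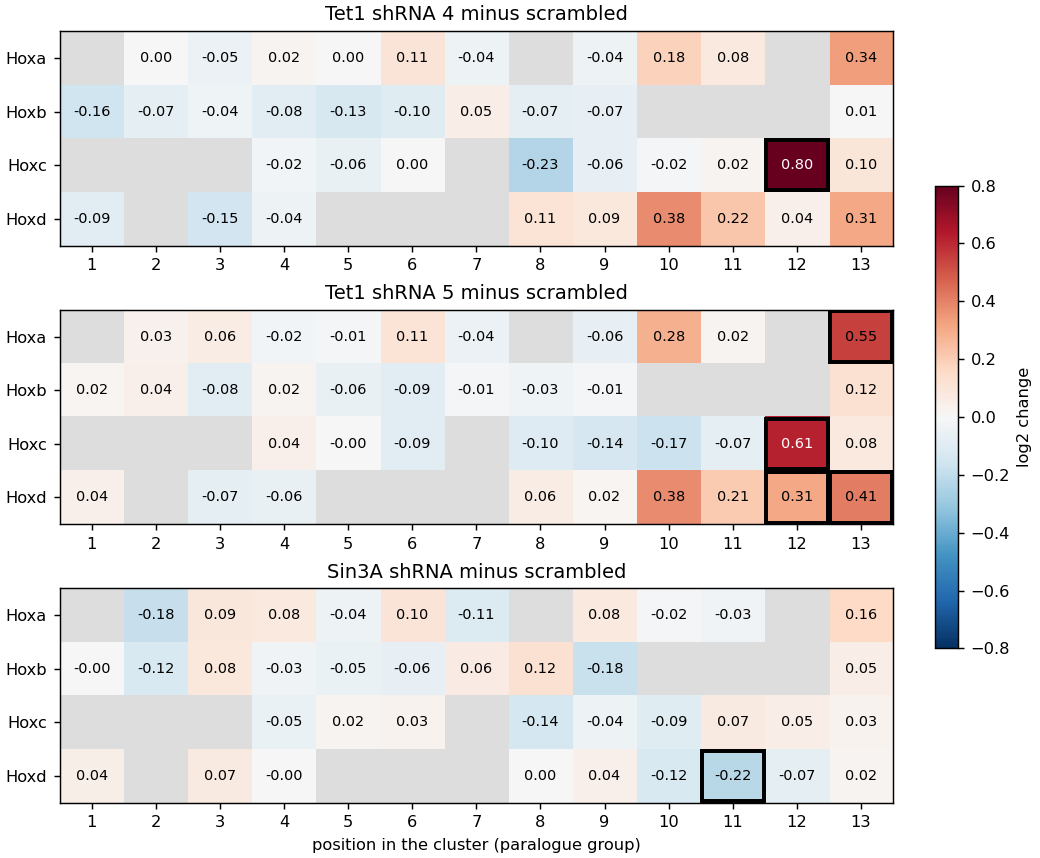
Map of the log2 change of all 38 Hox genes against the scrambled arrays, with clusters in rows, position 1 to 13 in columns and 1 panel per shRNA; red is higher, blue lower, grey marks positions with no gene or no value, and black frames mark an adjusted p under 0.05. Frames are at positions 12 and 13 for the Tet1 hairpins and at Hoxd11 for the Sin3A hairpin.

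The hairpins were compared with each other directly. No Hox gene passed (0 of 38 by limma, against 0.141% of all probe sets). An unadjusted p under 0.05 was found for 2 (5.26%), below the 8.66% of all probe sets. Hoxd12 was higher with shRNA 5 than with shRNA 4 by 0.27 ± 0.08 (limma, unadjusted p = 0.0075 and adjusted p = 0.31), and its 3 arrays with shRNA 5 lay above the 3 with shRNA 4. Hoxc12 was lower with shRNA 5 by 0.18 ± 0.07 (log2 difference −0.18; limma, unadjusted p = 0.023 and adjusted p = 0.47), again without overlap. The call for Hoxa13 and Hoxd13 with shRNA 5 and not shRNA 4 therefore does not show that the hairpins differed: between hairpins these genes differed by 0.21 ± 0.14 and 0.10 ± 0.11 (adjusted p = 0.74 and 0.88). The arrays of Hoxa13 did not overlap between hairpins, those with shRNA 5 being higher. Those of Hoxd1 (higher with shRNA 5) and Hoxc6 (lower) did not either (limma adjusted p = 0.73 and 0.83). The share of all probe sets without overlap was not counted for this comparison.

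Markers of other cell types moved with Tet1 knockdown as well, and are set here beside the 5.40% of all probe sets that were higher and the 3.40% that were lower with both hairpins. Of 6 mesoderm and primitive streak markers, 5 were below the array median in the scrambled arrays and 1, Eomes, rose with both hairpins (1.28 ± 0.09 and 1.40 ± 0.09, limma adjusted p = 2e-05 and 1.6e-05). The summed level of the 6 on the log2 scale was 9.16 to 9.33 in the scrambled arrays, 9.48 to 9.58 with shRNA 4 and 9.56 to 9.57 with shRNA 5. The knockdown ranges thus did not overlap the scrambled range. The median change of the 6 was −0.05 with each hairpin, so the sum leans on Eomes. Mesp1 (at −1.47 relative to the array median) and Mixl1 (at −0.75), which define the nascent mesoderm, did not pass. Of 6 neural markers, 3 fell with both hairpins: Neurod1 (−1.76 and −1.23), Nes (−0.75 and −0.47) and Pax6 (−0.64 and −0.49). The summed level of the 6 was 10.18 to 10.22 in the scrambled arrays, 9.63 to 9.75 with shRNA 4 and 9.80 to 9.91 with shRNA 5. Of 6 primitive endoderm markers Sox7 rose with both hairpins (0.80 and 0.83), and the summed level was 9.09 to 9.43, 9.40 to 9.55 and 9.49 to 9.55 in the same order. Of 6 trophoblast markers Gata3 rose (0.36 and 0.57) and Krt7 fell (by 0.45 and 0.46), with sums of 9.18 to 9.37, 9.16 to 9.23 and 9.29 to 9.33. Of 7 fibroblast markers Thy1 rose (0.82 and 0.81), with sums of 9.48 to 9.71, 9.71 to 9.86 and 9.70 to 9.83. Of 8 stem cell markers Klf4 (0.47 and 0.27) and Tdgf1 (0.23 and 0.20) rose and none fell, with sums of 15.18 to 15.22, 15.27 to 15.29 and 15.17 to 15.23. The shRNA 4 range of the stem cell sum and the shRNA 5 range of the endoderm sum did not overlap the scrambled range, and the trophoblast and fibroblast ranges did, by a small margin for fibroblast markers. Their part in the Hox differences was not tested.

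With Sin3A knockdown 1 Hox gene passed, and it was lower. Hoxd11 fell by 0.22 ± 0.05 on the log2 scale (limma adjusted p = 0.018). It had 7.45, 7.46 and 7.51 in the scrambled arrays of the Sin3A set and 7.31, 7.24 and 7.19 with the Sin3A shRNA, so all knockdown arrays were below all controls. The adjusted p was 0.0575 without scrambled replicate 3, 0.0698 and 0.0561 without Sin3A replicates 2 and 3, and 0.116 when the spread was taken from all 15 arrays. Marker levels moved here too, where 12.2% of all probe sets were higher and 12.6% lower. Of 6 trophoblast markers 2 fell, Gata3 (−0.42) and Krt7 (−0.43). The summed level of the 6 was 10.30 to 10.40 in the scrambled and 10.04 to 10.14 in the Sin3A arrays. Of 6 neural markers 1 rose, Neurod1 (0.77), and 2 fell, Pax6 (−0.18) and Nes (−0.36). Their summed level was 11.03 to 11.08 in the scrambled and 11.28 to 11.31 in the Sin3A arrays. Neurod1 had the highest signal of the 6 in the scrambled arrays, so the sum leans on that gene. Of 6 primitive endoderm markers Sox7 rose by 0.45 (limma adjusted p = 0.00069), and the summed level was 10.21 to 10.32 in the scrambled and 10.34 to 10.43 in the Sin3A arrays. The sums of the mesoderm, fibroblast and stem cell markers overlapped between the groups: 10.26 to 10.30 and 10.26 to 10.32, 10.67 to 10.87 and 10.45 to 10.70, and 15.49 to 15.53 and 15.51 to 15.55. Among their genes Eomes (0.31) and Klf4 (0.41) rose, and Foxf1 (−0.40), Thy1 (−0.23), Pdgfrb (−0.58) and Nanog (−0.27) fell. Their part in the change of Hoxd11 was not tested.

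Few Hox genes passed in this comparison, where many probe sets did. Higher were 0 of 38 Hox genes, against 12.2% of all probe sets, and lower was 1 of 38, against 12.6%. Among all probe sets below the array median the shares were 6.22% and 5.77%. Unadjusted p was under 0.05 for 2 Hox genes (5.26%), against 36.0% of all probe sets. Standard errors of the Hox genes ran from 0.05 to 0.11 in this comparison, with a median of 0.07 (0.06 over all probe sets). Counted by arrays, 1 Hox gene was above all controls (Hoxa6; 20.4% of all probe sets) and 3 were below (Hoxb9, Hoxc10 and Hoxd11; 20.1%); Hoxa6 is named here after its values were seen. The median change was −0.00 over the 38 genes and 0.00 over the posterior ones.

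Hoxc12 had 8.15, 8.17 and 8.13 in the scrambled arrays of that set and 8.19, 8.25 and 8.16 with the Sin3A shRNA, a change of 0.05 ± 0.05 (adjusted p = 0.51) with overlapping arrays. Hoxa13 had 7.05, 7.03 and 7.19 against 7.33, 7.32 and 7.08, and Hoxd13 had 6.93, 6.98 and 6.95 against 6.89, 7.02 and 7.01. The change of Hoxa13 was 0.16 ± 0.08 (adjusted p = 0.21), the highest of the Hoxa cluster, and without Sin3A replicate 3 it was 0.24 (adjusted p = 0.0485). Hoxd13 changed by 0.02 ± 0.06, Hoxd12 by −0.07 ± 0.08 and Hoxd10 by −0.12 ± 0.07, with adjusted p of 0.29 or above. The lowest values elsewhere were Hoxa2 (−0.18 ± 0.08, adjusted p = 0.14), Hoxb9 (−0.18 ± 0.07, adjusted p = 0.096) and Hoxc8 (−0.14 ± 0.10, adjusted p = 0.37). Hoxb9, a thoracic gene, had 8.07, 8.05 and 8.13 against 8.01, 7.91 and 7.79, and without Sin3A replicate 1 its change was −0.23 (adjusted p = 0.0371). The highest values elsewhere were Hoxb8 (0.12 ± 0.11), Hoxc11 (0.07 ± 0.09) and Hoxd3 (0.07 ± 0.07), with adjusted p from 0.48 to 0.64.

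Whether a gene responded differently to Tet1 and Sin3A knockdown was tested on the difference between effects, each taken against the controls of its own set. Of 38 Hox genes, 2 passed by limma, against 20.0% of all probe sets. The mean Tet1 effect exceeded the Sin3A effect by 0.65 ± 0.08 for Hoxc12 (adjusted p = 3.6e-05) and by 0.44 ± 0.13 for Hoxd11 (adjusted p = 0.023). For Hoxd11 this joins a fall with the Sin3A shRNA to Tet1 values above 0 that did not pass on their own. Its adjusted p rose to 0.0627 and 0.0659 without scrambled replicates 1 and 3 of the Tet1 set, to 0.0559 without scrambled replicate 3 of the Sin3A set, and to 0.0525 and 0.0591 without Sin3A replicates 2 and 3. Without scrambled replicate 2 of the Tet1 set 6 of 38 Hox genes passed, where 4511 of all 21212 probe sets did. Hoxd10 differed by 0.50 ± 0.17 (adjusted p = 0.052), and it passed without scrambled replicate 2 of the Tet1 set (0.58, adjusted p = 0.0324), without shRNA 4 replicate 1 (0.55, 0.0277) or 2 (0.42, 0.0448), and without shRNA 5 replicate 2 (0.56, 0.022).

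Among genes known to act with HOX proteins or on the clusters, some passed in each list but 1, that of the ParaHox and Evx genes, with the Tet1 hairpins. Of 8 Hox cofactors, homeodomain proteins that bind DNA beside HOX proteins, 2 rose with both Tet1 hairpins (5.40% of all probe sets did) and none fell (3.40%). They were Meis2 (0.70 ± 0.09 and 0.91 ± 0.09, limma adjusted p = 0.00068 and 0.00016) and Pknox2 (0.37 ± 0.09 and 0.36 ± 0.09, adjusted p = 0.024 and 0.025). With the Sin3A shRNA 3 cofactors rose, Pbx3 by 0.68, Pknox2 by 0.47 and Pknox1 by 0.19, and 2 fell, Meis2 by 0.58 and Pbx2 by 0.32, where 12.2% of all probe sets rose and 12.6% fell. Meis2 thus passed in opposite directions, and Pknox2 in the same one.

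Retinoic acid is the classical inducer of Hox genes in stem cells. Of 14 genes of its reception, transport, turnover and response, 4 rose with both Tet1 hairpins (5.40% of all probe sets) and none fell (3.40%). These were the binding proteins Crabp1 (0.88 ± 0.07 with each) and Crabp2 (0.37 ± 0.08 and 0.65 ± 0.08), the receptor Rxra (0.67 ± 0.09 and 0.62 ± 0.09) and the germ cell gene Stra8 (0.49 ± 0.07 and 0.54 ± 0.07), all with limma adjusted p of 0.019 or below. Rarb (−0.03 and −0.02), Cyp26a1 (−0.14 and −0.07), Cyp26b1 (−0.10 and −0.04) and Dhrs3 (0.25 and −0.00) did not pass with either. The median change of the 14 genes was −0.02 with each hairpin. Their part in the Hox differences was not tested. With the Sin3A shRNA Stra8 rose by 0.24, and Crabp1 and Crabp2 fell by 0.38 and 0.36 (1 higher and 2 lower of 14, against 12.2% and 12.6% of all probe sets).

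The ParaHox and Evx genes, the nearest relatives of the Hox genes (8 measured, among them Cdx2, Pdx1, Evx1 and Evx2), included none that passed with either Tet1 hairpin. With the Sin3A shRNA 1 of 8 rose, Cdx4 by 0.21 (adjusted p = 0.04), near the 12.2% of all probe sets. Of 16 genes bordering the clusters, 2 rose (Mtx2, and Atp5g3 on the Evx2 side of Hoxd by 0.28 ± 0.06 and 0.31 ± 0.06) and 1 fell (Cbx5, beside Hoxc, by 0.37 ± 0.07 and 0.42 ± 0.07) with both Tet1 hairpins, against 5.40% and 3.40% of all probe sets. With the Sin3A shRNA 2 rose and 6 fell, against 12.2% and 12.6% of all, with Skap2 (0.77), Ttll6 (−0.61), Snx10 (−0.57) and Calcoco1 (0.43) the furthest from 0.

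Of 15 Trithorax and H3K27 demethylase genes, which keep Hox genes active, 1 rose and 1 fell with both Tet1 hairpins, shares near those of all probe sets (5.40% and 3.40%). Wdr5 rose by 0.50 ± 0.08 and 0.49 ± 0.08, and the demethylase Kdm6a fell by 0.30 ± 0.07 and 0.25 ± 0.07 (adjusted p = 0.025 and 0.042). Counted by hairpin, 1 of the 15 rose and 1 fell with shRNA 4, and 3 rose and 4 fell with shRNA 5. With shRNA 5, 8.37% of all probe sets were higher and 5.46% lower. All 15 genes lay above the array median in the scrambled arrays, where these shares were 13.6% and 8.94%. With the Sin3A shRNA 2 rose (Kmt2c by 0.55 and Kdm6b by 0.44) and 3 fell (Psip1 by 0.30, Rbbp5 by 0.29 and Setd1a by 0.25), against 12.2% and 12.6% of all probe sets. Of 24 Polycomb genes, the repressors of the clusters, Cbx2 alone rose with both Tet1 hairpins (0.39 ± 0.07 and 0.49 ± 0.07, adjusted p = 0.0039 and 0.001) and none fell, where 5.40% and 3.40% of all probe sets did. The core subunits Ezh2, Eed, Suz12 and Rnf2 did not pass in any of the 3 comparisons with scrambled. With the Sin3A shRNA 2 Polycomb genes rose (Phc3 by 0.47 and Yaf2 by 0.23) and 1 fell (Pcgf6 by 0.20), against 12.2% and 12.6% of all probe sets.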

How the data were processed

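The authors deposited 1 table of log2 expression values, made with affy, RMA and limma per the submitters' processing notes; versions, order and genome build are not given in the sources used here. Per the labels' protocols, the arrays were 1-colour Affymetrix arrays, and their number, 3 per group, limits the precision. Array means show that the Tet1 set (9 arrays) and the Sin3A set (6 arrays) were scaled apart, so levels were compared within a set. Of 21212 probe sets, 18786 had 1 gene symbol, 6 had several and 2420 had no listed gene; all entered the fits. Each array's median was subtracted for baseline levels.

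Group means were fitted to the log2 values with limma 3.58.1 (lmFit, eBayes; R 4.3.3) in the 9 Tet1-set arrays, in the 6 Sin3A-set arrays and, for the difference between effects, in all 15. The p-values are two-sided and adjusted by Benjamini-Hochberg across every probe set, at a threshold of 0.05, and the code was tested on simulated data. Alternatives were array centring, repeated quantile normalization, eBayes with trend and robust settings, a filter on dim probe sets, the replicate number as a block, other arrays in the fit, and each array left out.

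Members and gene lists were chosen with earlier results of these data known. Named are Hox genes past the threshold in any comparison or with unadjusted p under 0.05 in at least 2, those above the array median in scrambled arrays, and the extremes of each cluster; genes of other lists are named where past the threshold in both Tet1 comparisons or with the Sin3A shRNA (of more than 6, the 4 with the largest change). Promoters are RefSeq's (GRCm38.p6), cut to 250 upstream bases in Python 3; Hox genes without one, Hoxc12 among them, were not analysed there.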

Additional observations from a re-analysis of the deposited data

Results flagged for a closer look

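For 2 Hox genes the effects of Tet1 and Sin3A knockdown differed by a test of the difference itself. For Hoxc12 the mean Tet1 effect exceeded the Sin3A effect by 0.65 on the log2 scale (limma adjusted p = 3.6e-05), and the difference passed in all settings tried, those leaving out 1 array included. For Hoxd11 it did so by 0.44 (adjusted p = 0.023), and the difference passed in 10 of 15 fits that left out 1 array. The 2 sets were scaled apart, and each effect was taken within its own set. Groups of 3 arrays were too small for a test of single outlying arrays.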

How the results depend on the processing

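Hoxc12 kept its direction and its call with both Tet1 hairpins in every setting tried, and no called Hox change turned its sign. The number of Hox genes called moved as follows. With each array left out in turn it ran from 1 to 3 for shRNA 4 (1 with all arrays), 1 to 5 for shRNA 5 (4), 1 to 3 for both hairpins (1), 0 to 2 for Sin3A (1) and 1 to 6 for the difference between Tet1 and Sin3A effects (2). In the same fits the calls among all 21212 probe sets ran from 1662 to 2633 for shRNA 4 and 2004 to 3077 for shRNA 5. They ran from 3359 to 4944 for Sin3A and 3408 to 4511 for the difference. Without replicate 2 of both the scrambled and the shRNA 4 group the Hox count was 4 for shRNA 4 (3 higher, and Hoxc8 lower), 6 for shRNA 5 (Hoxa10, Hoxd10 and Hoxd11 gained, and Hoxd12 lost with an adjusted p of 0.0566), 3 for both hairpins and 5 for the difference. Of all 21212 probe sets 2451 were called there for shRNA 4, 3428 for shRNA 5 and 4826 for the difference. Repeated quantile normalization gave 6 for shRNA 5 (Hoxa10 and Hoxd10 gained) and 5 for the difference, in which Hoxd10 passed in 4 of 5 other settings and not with the replicate block (adjusted p = 0.106). Of all 21212 probe sets this normalization gave 3008 for shRNA 5 and 4433 for the difference. With the dim probe sets left out 3 Hox genes of the Tet1 set were tested. Of these 1 was called with shRNA 5, against 3339 of all 10685 tested. No median was taken there. With only the 2 groups in the fit shRNA 5 gave 2, and with all 15 arrays in 1 fit shRNA 4 gave 2, both hairpins 2 and Sin3A 0. Of all 21212 probe sets the first fit gave 2453 for shRNA 5. The second gave 3412 for shRNA 4 and 4683 for Sin3A. Against the array mean, 1 Hox gene of the Sin3A set lay above (3 above the median).

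Replicate numbers were no sign of pairing: over 12 pairs of same-numbered arrays the correlation of deviations ran from −0.287 to 0.517, and 3 exceeded 0.1. With the replicate block the Sin3A count was 0 (Hoxd11 at −0.22, adjusted p = 0.0553) and the other counts were 1, 4, 1, 0 and 2, as without it. Of all 21212 probe sets the block gave 4111 for Sin3A, 2290 for shRNA 4, 2784 for shRNA 5 and 3723 for the difference. The cause of these moves was not tested. Most Hox probe sets are dim and many are tied in the Tet1 set, so small differences between arrays are not resolved there.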
